A study of Mus musculus with 20 samples.

Results

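The 35 genes described here are genes in wide use as markers of astrocytes, the star-shaped glial cells of the brain, and were read in RNA from mouse BNST, the brain's bed nucleus of stria terminalis, with and without stress. They are a list of names (Gfap, Aqp4, Aldh1l1, Slc1a2, Slc1a3, Gja1 and 29 further genes) that uses no measured value but was drawn up with earlier results of these data known. All 35 were found among the 19214 genes of the deposited tables. All 35 also passed the filter on low counts, which left 14884 genes for testing. The BNST is a small forebrain region that links the amygdala to the hypothalamus and is studied for its part in anxiety.

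The series holds 20 polyadenylated RNA libraries, 5 from each of 4 groups. The groups are susceptible females, susceptible males, control females and control males, each labelled with the tissue BNST, a sex (entered under genotype) and a treatment of Susceptible or Control. Susceptible mice belong to a model of anxiety produced by chronic restraint stress. No strain, age, transgene or duration of restraint, and no criterion for susceptibility, is given in the sources used here, and neither is whether each library came from 1 mouse or from several pooled mice. P-values for differences between groups therefore set them against the spread of libraries within groups, and part of that spread may be technical.

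Astrocytes clear glutamate and GABA from synapses, turn glutamate into glutamine, buffer potassium and water through channels and gap junctions, and release lipoproteins and other proteins. Their best known marker is GFAP, an intermediate filament that is made in greater amounts when astrocytes react to injury, while ALDH1L1 and the glutamate transporters mark astrocytes at rest as well. Work in rodent stress models has long included counts of GFAP-positive cells and the level of GLT-1, the product of Slc1a2. In whole tissue, fewer astrocytes and less RNA per astrocyte cannot be told apart.

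Total counts were 14637636 to 17862840 per library, so every member was read deeply: the lowest count of any member in any library was 63, for Agt. Values are library-scaled counts (CPM) normalized by the trimmed mean of M-values, or, where genes are compared with each other, the same per kilobase of exon (RPKM). The GABA neuron markers Gad1, Gad2 and Slc32a1, which the BNST is known to express, were abundant in every library, at 456 to 893, 454 to 989 and 150.2 to 348 CPM. Genes of neighbouring tissue varied far more. Ttr of the choroid plexus ran at 6.95 to 2000.1 CPM and exceeded 100 CPM in 2 susceptible female, 2 susceptible male, 2 control female and 1 control male libraries. Pmch of the lateral hypothalamus exceeded 1 CPM in 1 susceptible female, 1 susceptible male and 3 control female libraries, and reached 117 CPM in control female 1. Control male 5, with 1683 CPM of Ttr, stood apart for the astrocyte genes too: it was the lowest of all 20 libraries for 14 members and the highest for 6. Susceptible female 5 was the lowest for 12 and the highest for 1. Several results are therefore also given without these libraries.

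The members spanned a wide range of levels, and the order was led by secreted proteins. Per length, Sparcl1, which encodes the matrix protein hevin, had the highest mean over 20 libraries, at 673 RPKM. Apoe, the main lipoprotein of the brain, and Cst3, a secreted protease inhibitor, followed at 596 and 595 RPKM, and their ranges over libraries overlapped. Glul, the glutamine synthetase, had 434 RPKM, and Ndrg2, a cytoplasmic protein of astrocytes, 282 RPKM. Clu (clusterin), Aldoc (an aldolase) and Slc1a2 (the main glutamate transporter) lay close together at 222, 211 and 203 RPKM, and did not differ beyond the spread over libraries. The second glutamate transporter, Slc1a3, had 81.2 RPKM, and the GABA transporter Slc6a11 108 RPKM. The markers most used to find astrocytes were in the lower part of the list: Gfap had 31.7, Gja1 (connexin 43) 24.9, Aqp4 (the water channel of astrocyte endfeet) 23.3 and Aldh1l1 (a folate enzyme) 13.7 RPKM. Sox9, a transcription factor, had 10.1 RPKM, Vim (vimentin) 6.18, Cbs (cystathionine beta-synthase) 4.91 and Prodh (proline dehydrogenase) 4.22 RPKM. Prodh, the lowest, was above 41.8% of all genes tested. Each member was detected in each library.

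**Figure D1:**
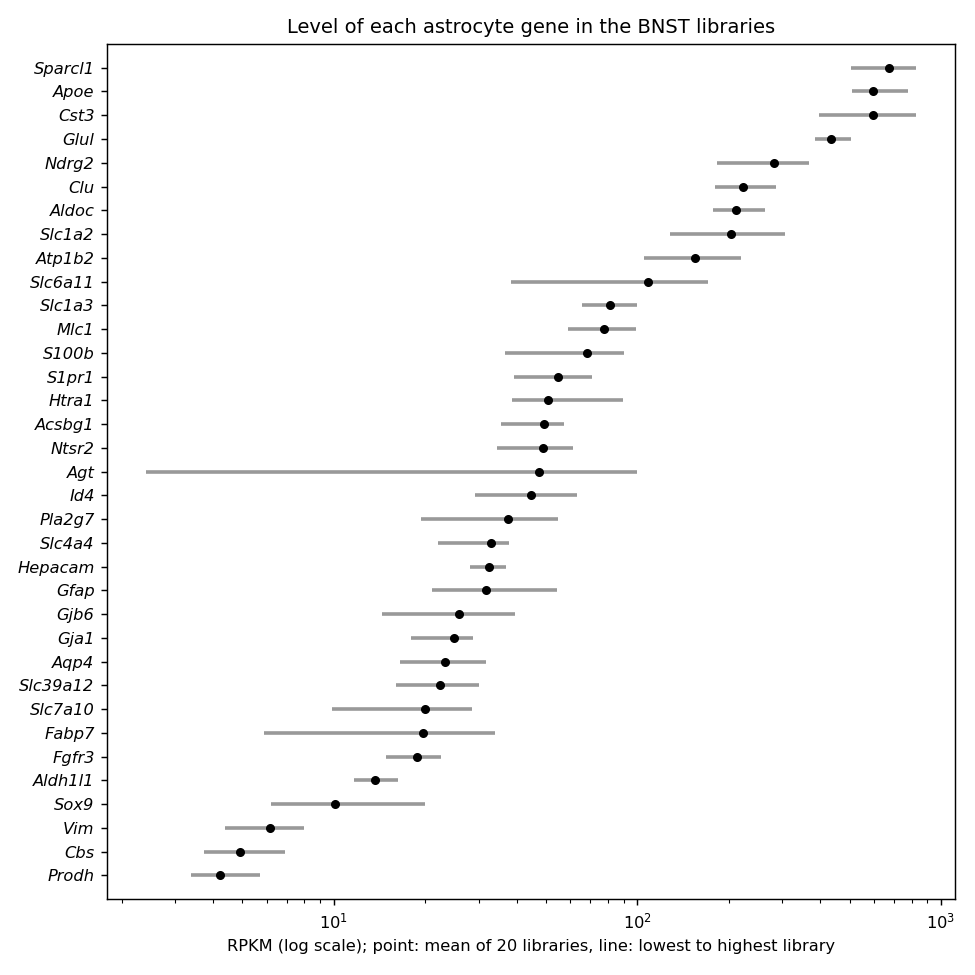
Mean RPKM of each of the 35 astrocyte genes over 20 libraries (points), with the lowest and highest library (lines), on a log axis. Sparcl1 leads at 673 RPKM and Prodh is last at 4.22 RPKM; the line of Agt, from 2.40 to 99.8 RPKM, is by far the longest.

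The first comparison asks how the astrocyte genes differed between susceptible and control females. Contrasts of susceptible with control mice are called stress contrasts here. Exposure to stress and any selection of mice as susceptible cannot be told apart in them. In susceptible females the estimates were lower than in control females for 28 of the 35 members, with a median log2 fold change of -0.14, against 0.01 over all genes tested. No member passed the test in edgeR, and neither did any gene of the 14884, so that 0.0% of all genes were called. DESeq2 and limma voom with quality weights called none either. The smallest adjusted p of a member in edgeR's quasi-likelihood test was 0.774. At an unadjusted p under 0.05, 4 members were lower and 1 was higher in susceptible females, 5 of 35 in all, where 5.85% of all genes stood at that level. No member separated the groups without overlap, as 0.464% of all genes did. Single libraries moved these values. The median was -0.077 without susceptible female 5 and -0.192 without control female 5. The number at an unadjusted p under 0.05 was 3 without susceptible female 5, control female 1 or control female 3, and 11 without control female 5, where 12.4% of all genes stood at that level.

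The lists of other cell types also had estimates of 1 sign in this comparison for 3 types. All 15 oligodendrocyte genes had lower estimates in susceptible females, with a median of -0.29, as did all 10 meningeal fibroblast genes, with a median of -0.42. All 11 striatal neuron genes had higher ones, with a median of 0.88. None of these was called in edgeR, and their part in the astrocyte values was not tested.

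Gfap gave the smallest p. Gfap had 139.7, 107, 103, 125 and 88.9 CPM in susceptible females, against 229, 165, 204, 132 and 119 CPM in control females. In 3 of the control libraries Gfap was above every susceptible library, and in the other two it fell within the susceptible range. The means were 113 ± 19.8 CPM and 169.8 ± 46.4 CPM (SD, n = 5 each), a log2 fold change of -0.59 ± 0.19 (SE), which had an unadjusted p of 0.00555 and an adjusted p of 0.774 in edgeR. The 3 control females high in Gfap are also the 3 with Pmch above 1 CPM. Without all libraries above 1 CPM of Pmch, which leaves 4 susceptible and 2 control females, the log2 fold change was -0.19, and without those above 100 CPM of Ttr it was -0.58. What part neighbouring tissue had in the Gfap levels was not tested.

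Fgfr3, a receptor for fibroblast growth factors, was second. It had 109, 125, 125, 136 and 106 CPM in susceptible females, against 152, 154, 143, 148 and 119 CPM in control females. Only control female 5 lay inside the susceptible range, and the log2 fold change was -0.25 ± 0.09 (SE), with an unadjusted p of 0.0095 and an adjusted p of 0.774 in edgeR. Acsbg1, which activates long-chain fatty acids, was the third, with 181, 179, 159, 170.2 and 150.3 CPM in susceptible females, against 200.3, 206, 200.4, 189 and 179.6 CPM in control females. Again 1 control library, the same control female 5, overlapped, and the log2 fold change was -0.22 ± 0.09 (SE), with an unadjusted p of 0.0202 and an adjusted p of 0.774 in edgeR. These estimates were -0.20 for Fgfr3 and -0.13 for Acsbg1 without the libraries above 1 CPM of Pmch.

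Aqp4 and Id4 were the other members with an unadjusted p under 0.05. Aqp4 had 124, 144, 181, 135 and 135 CPM in susceptible females, against 186, 174, 198, 159 and 163 CPM in control females, so that 4 of the 5 susceptible libraries were below all controls and susceptible female 3 was above 3 of them. Its log2 fold change was -0.29 ± 0.12 (SE, unadjusted p of 0.0286, adjusted p of 0.774 in edgeR), and -0.14 without the libraries above 1 CPM of Pmch. Id4, a regulator of progenitor differentiation, went the other way, with 199 ± 33.0 CPM in susceptible and 162 ± 13.4 CPM in control females (SD, n = 5 each) and a log2 fold change of 0.29 ± 0.12 (SE).

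The remaining fixed markers of the list showed smaller differences. Aldh1l1 had 63.7, 64.3, 57.9, 58.8 and 52.7 CPM in susceptible females, against 68.7, 72.3, 73.3, 62.5 and 54.3 CPM in control females. Control females 1, 2 and 3 were above every susceptible library, and control females 4 and 5 lay inside the susceptible range. Slc1a2 had 2214, 3616, 2398, 1683 and 4019 CPM in susceptible females, against 2197, 2167, 2501, 2605 and 3331 CPM in control females. The susceptible libraries held both the lowest and the highest value of the whole series. Slc1a3 had 725 ± 116 CPM in susceptible and 693 ± 74.7 CPM in control females, and Gja1 268 ± 33.3 CPM in susceptible and 279 ± 11.9 CPM in control females (SD, n = 5 each). The log2 fold changes were -0.15 for Aldh1l1, 0.12 for Slc1a2, 0.06 for Slc1a3 and -0.06 for Gja1, and none had an unadjusted p under 0.05. Without susceptible female 5 the estimate was -0.05 for Slc1a2 and 0.01 for Gja1. Without the libraries above 1 CPM of Pmch it was 0.03 for Aldh1l1 and -0.05 for Slc1a3.

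**Figure D2:**
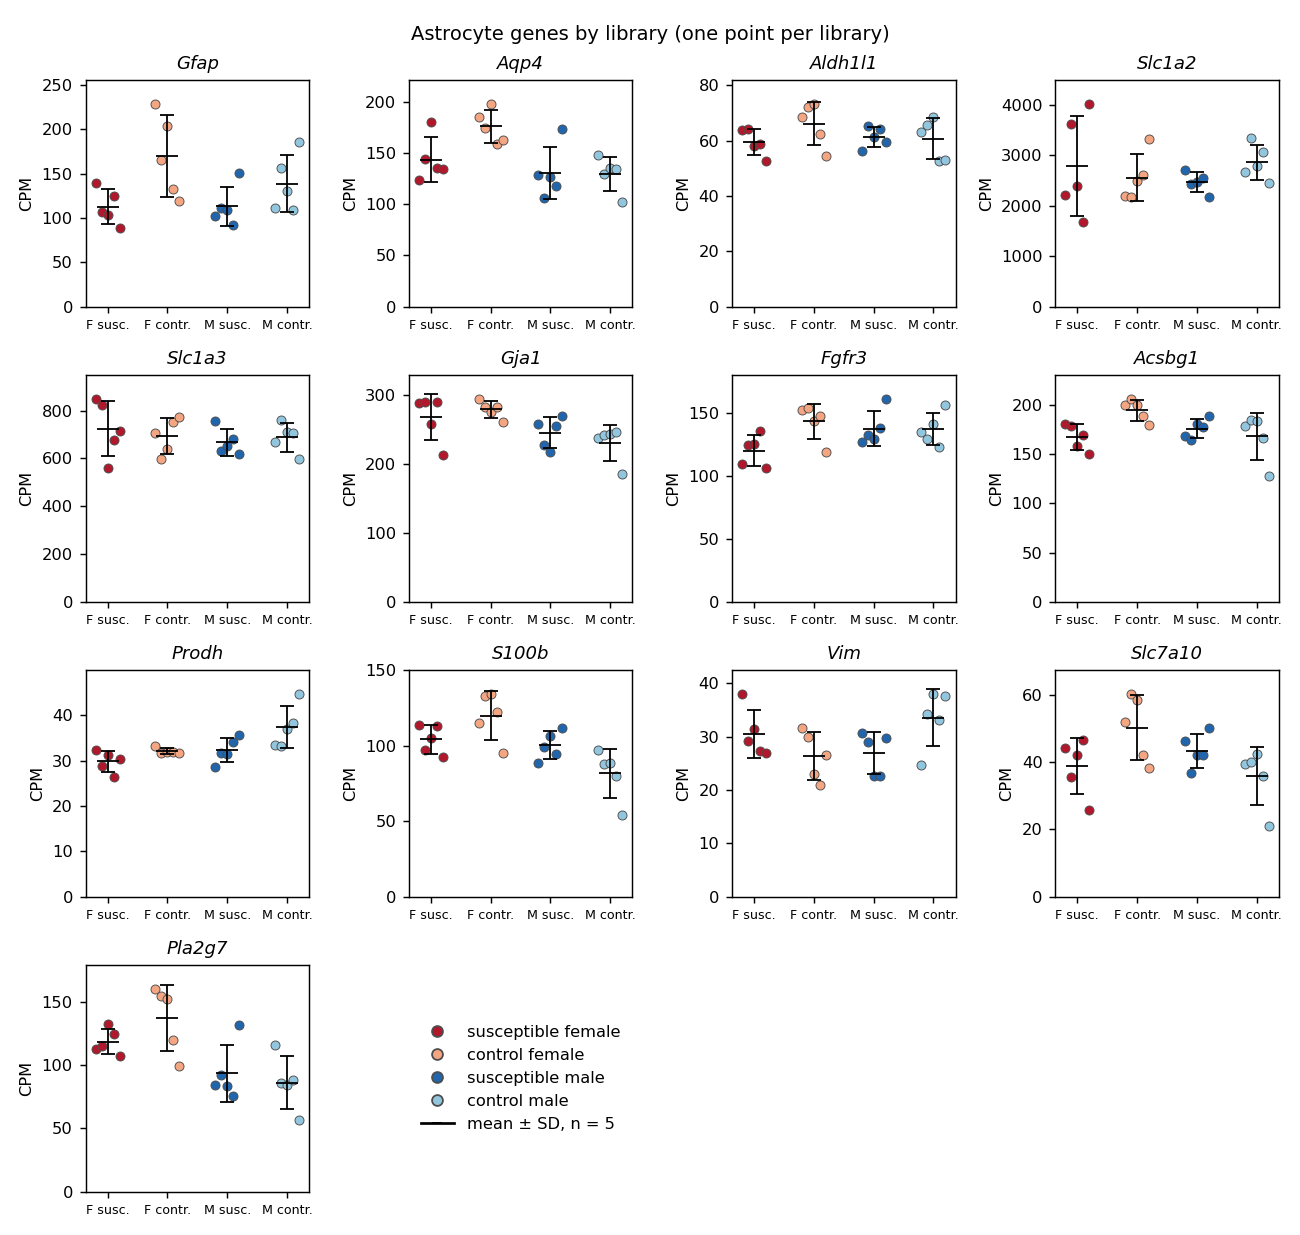
CPM of 13 named astrocyte genes in each library (points), with the mean and SD of each group (black; n = 5), for susceptible and control females and then susceptible and control males; each axis starts at 0. In Gfap the 3 highest female points are controls, and in S100b the susceptible means of both sexes (104 and 100.2 CPM) lie between those of control females (119.9 CPM) and control males (81.7 CPM).

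By role, the 7 genes of the water channel, junctions and ion transport (Aqp4, Gja1, Gjb6, Mlc1, Hepacam, Slc4a4 and Atp1b2) all had lower estimates in susceptible females, with log2 fold changes of -0.29 to -0.06. So did all 6 enzymes (Aldh1l1, Aldoc, Acsbg1, Cbs, Pla2g7 and Prodh), at -0.22 to -0.11, and S100b, Ndrg2, Fabp7 and Slc39a12, at -0.22 to -0.07. The 5 genes of amino acid uptake and glutamine synthesis were split, with 3 lower and 2 higher, as were the 6 secreted proteins, with 4 lower and 2 higher. The largest estimate of all, -0.77 ± 0.69 (SE) for Agt, came from a gene with a very wide spread and had an unadjusted p of 0.281 in edgeR. Without the libraries above 1 CPM of Pmch, 20 of the 35 estimates were negative and their median was -0.031.

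The second comparison asks the same of males. Susceptible males had higher estimates than control males for 22 members and lower ones for 13, and the median log2 fold change was 0.02, against -0.01 over all genes tested. No member and no other gene was called in edgeR (0.0% of all genes), and the smallest adjusted p of a member in edgeR was 0.451. DESeq2 called 24 genes and limma voom 689, no member among them. At an unadjusted p under 0.05, 3 members were lower and 1 was higher, 4 of 35, against 9.67% of all genes. None separated the male groups without overlap, as 2.43% of all genes did. The balance of signs was not steady: without the libraries above 100 CPM of Ttr, 21 of the 35 estimates were below 0 and the median was -0.019. Without susceptible male 2 the median was 0.063. Without susceptible male 3 or 4, 2 members had an unadjusted p under 0.05. All 15 oligodendrocyte genes had higher estimates in susceptible males, with a median of 0.32, and all 11 striatal neuron genes lower ones, with a median of -0.33, none called in edgeR.

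Prodh, which breaks down proline, had 28.6, 31.7, 31.4, 34.1 and 35.5 CPM in susceptible males, against 33.5, 33.2, 36.9, 38.4 and 44.6 CPM in control males. The groups overlapped, and the highest value was that of control male 5. The log2 fold change was -0.21 ± 0.08 (SE), with an unadjusted p of 0.0163 and an adjusted p of 0.451 in edgeR, and it was -0.14 without control male 5. S100b, a calcium-binding protein of astrocytes that oligodendrocytes also make, had 88.9, 99.1, 107, 94.5 and 112 CPM in susceptible males, against 97.2, 88.1, 88.7, 79.9 and 54.3 CPM in control males. Control male 5 was far below the rest. Its log2 fold change was 0.30 ± 0.12 (SE), with an unadjusted p of 0.0285 and an adjusted p of 0.474 in edgeR, and it was 0.18 without control male 5. Vim, the second filament gene, had 30.7, 29.0, 22.7, 22.6 and 29.8 CPM in susceptible males, against 24.7, 34.2, 37.9, 33.1 and 37.6 CPM in control males. All but 1 control library were above every susceptible library. The log2 fold change was -0.31 ± 0.14 (SE), with an unadjusted p of 0.0349 and an adjusted p of 0.487 in edgeR.

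Sox9, which drives the astrocyte fate, was the fourth such member, and here 1 library set the difference. Sox9 had 39.8, 30.9, 32.1, 28.0 and 33.6 CPM in susceptible males, against 41.8, 35.8, 37.2, 25.7 and 82.6 CPM in control males. Control male 5 was far above the rest, and the other control males overlapped with the susceptible ones. Without control male 5, no member had an unadjusted p under 0.05 in males, 18 of 35 estimates were negative, and the median was -0.001.

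The fixed markers of the list gave small male differences. Gfap had 102, 111, 109.5, 92.3 and 150.4 CPM in susceptible males, against 112, 156, 131, 109.5 and 185 CPM in control males. The groups overlapped widely. Its log2 fold change was -0.30 ± 0.19 (SE, unadjusted p of 0.133, adjusted p of 0.642 in edgeR), and -0.17 without control male 5. Aqp4 had 128, 106, 127, 118 and 174 CPM in susceptible males, against 148, 129, 135, 135 and 103 CPM in control males. Here susceptible male 5 was the highest and control male 5 the lowest, and the log2 fold change was 0.01, turning to -0.07 without control male 5 and to -0.12 without susceptible male 5. Slc1a2 had 2470.3 ± 192 CPM in susceptible and 2861 ± 351 CPM in control males (SD, n = 5 each), a log2 fold change of -0.21 ± 0.18 (SE). The estimates were 0.02 for Aldh1l1, -0.05 for Slc1a3 and 0.09 for Gja1.

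By role, the same 7 genes of the water channel, junctions and ion transport all had estimates above 0 in males, from 0.01 to 0.19. S100b, Ndrg2, Fabp7 and Slc39a12 did too, at 0.23 to 0.50. Both filament genes were below 0, the 6 enzymes were split evenly, and the amino acid uptake genes ran from -0.21 for Slc1a2 to 0.47 for Slc6a11.

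The sexes were set against each other by the difference of the 2 stress contrasts, females minus males. Of the 35 members, 20 had a lower estimate in susceptible females and a higher one in susceptible males, 5 had the reverse, 8 were lower in both sexes and 2 were higher in both. The difference had a median of -0.17, against 0.01 over all genes, and 23 members were below 0. None was called in edgeR, nor was any other gene (0.0%), nor by DESeq2 or limma voom, and the smallest adjusted p in edgeR was 0.587. At an unadjusted p under 0.05 there were 5 members, 4 below 0 and 1 above, where 8.26% of all genes stood at that level. Without the libraries above 1 CPM of Pmch the median difference was -0.038 and 1 member had an unadjusted p under 0.05. With single libraries left out, the median ran from -0.244 without control female 5 to -0.124 without control male 5. The number at that level was 3 without control female 2 or susceptible male 5, 8 without susceptible male 2, 9 without susceptible female 4, 10 without control male 1 and 11 without control female 5. The signs were more uniform in several other lists. All 15 oligodendrocyte genes were below 0 (median -0.62, 14 at an unadjusted p under 0.05), as were all 10 thalamic neuron genes (median -0.95, 0 at that level). All 11 striatal neuron genes were above 0 (median 1.28, 3 at that level), as were all 12 endothelial genes (median 0.31, 1 at that level). No gene of these lists was called in edgeR, and their part in the astrocyte values was not tested.

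S100b had the smallest p for this difference. In females it had 114, 97.0, 105, 113 and 92.5 CPM in susceptible mice, against 115, 133, 134, 122 and 94.9 CPM in controls. The susceptible mean was below the control mean in females and above it in males. The difference of the log2 fold changes was -0.50 ± 0.18 (SE), with an unadjusted p of 0.0106 and an adjusted p of 0.587 in edgeR, and it was -0.38 without control male 5. Vim ran the other way. It had 37.9, 29.2, 31.4, 27.2 and 26.9 CPM in susceptible females, against 31.6, 29.8, 22.9, 20.8 and 26.5 CPM in control females, and a difference of 0.52 ± 0.20 (SE), with an unadjusted p of 0.0145 and an adjusted p of 0.587 in edgeR. Slc7a10, a transporter of small neutral amino acids such as serine and glycine, was the third. Slc7a10 had 44.0, 35.5, 42.1, 46.6 and 25.8 CPM in susceptible females, against 51.9, 60.1, 58.3, 42.2 and 38.3 CPM in control females. It had 46.3, 36.6, 42.0, 41.9 and 49.97 CPM in susceptible males, against 39.5, 40.0, 42.4, 35.8 and 20.9 CPM in control males. The groups overlapped in both sexes, and the difference was -0.65 ± 0.26 (SE), with an unadjusted p of 0.02 and an adjusted p of 0.587 in edgeR, and it was -0.51 without control male 5 and -0.54 without susceptible female 5. Acsbg1 and Sparcl1 were the other members at that level, with differences of -0.28 ± 0.12 and -0.38 ± 0.17 (SE).

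**Figure D3:**
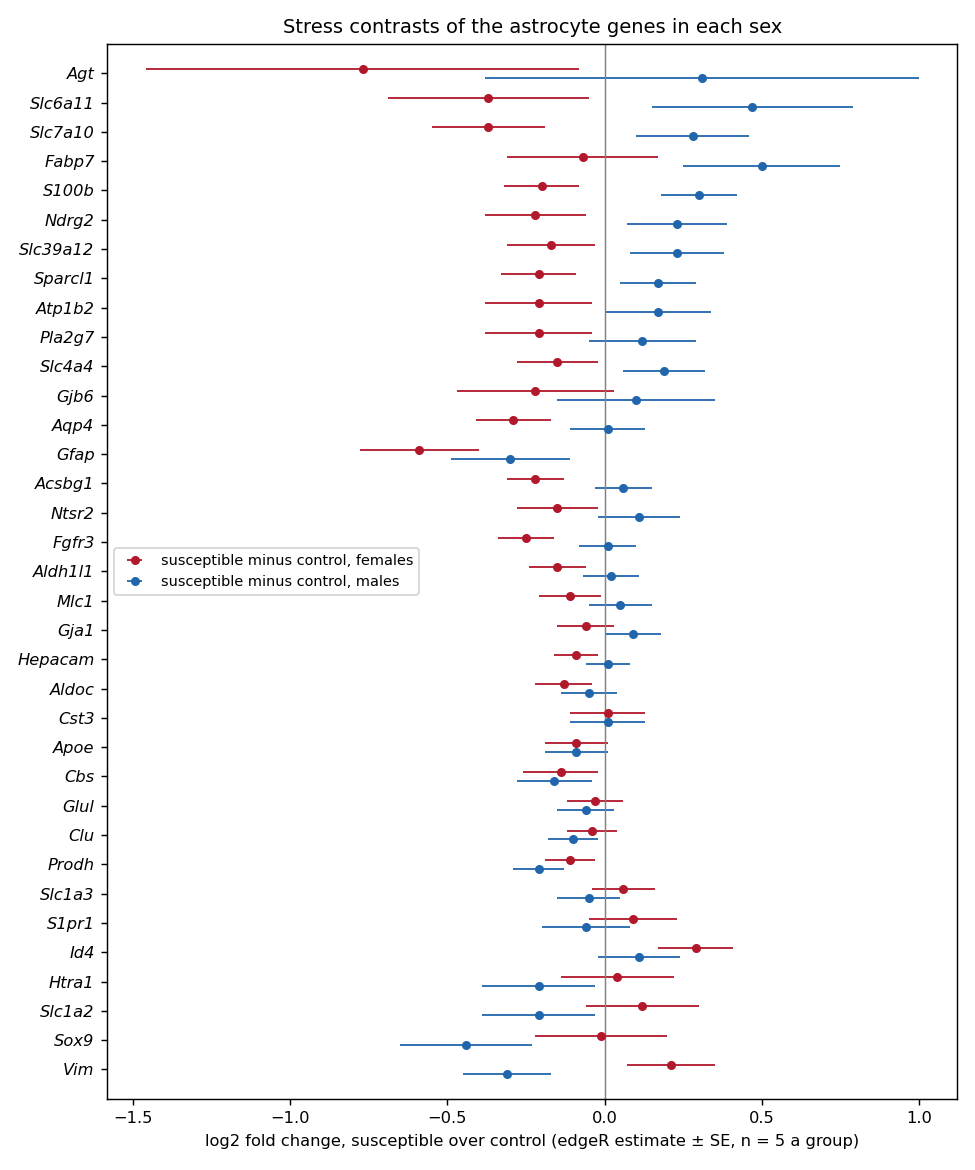
Log2 fold change of each astrocyte gene, susceptible over control, in females (red) and males (blue), as edgeR estimates with SE (n = 5 a group), ordered by the difference between the sexes. The upper genes, from Agt to Gjb6, lie left of 0 in females and right of 0 in males, and the lowest, Vim, shows the reverse; no estimate passed the adjusted threshold.

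Averaged over the sexes, 24 of the 35 estimates were below 0 and the median was -0.04, against -0.00 over all genes. No gene was called in edgeR (0.0%), and DESeq2 called 29 with no member among them. An unadjusted p under 0.05 was seen in 3 members, where 7.71% of all genes did. Gfap led with a log2 fold change of -0.44 ± 0.13 (SE, unadjusted p of 0.00358, adjusted p of 0.576 in edgeR), and it was lower in susceptible mice of each sex. Prodh followed with -0.16 ± 0.06 (SE) and Id4 with 0.20 ± 0.09 (SE), each with the same sign in both sexes. The number at an unadjusted p under 0.05 was 5 without susceptible female 1, susceptible male 5 or control male 4, and the median was -0.007 without susceptible female 5.

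Control males against control females gave the smallest p-values of the 6 contrasts for the list. This comparison shares its libraries with both stress contrasts, so its values are not independent of theirs. Control males had lower estimates for 30 of 35 members, with a median log2 fold change, male over female, of -0.20, against -0.00 over all genes. None was called in edgeR, where 76 genes were (0.511% of all tested), but the smallest adjusted p of a member, that of S100b, was 0.0502. DESeq2 called 3 members (Pla2g7, Aqp4 and S100b) and 455 genes, and limma voom called 10 members and 3324 genes. At an unadjusted p under 0.05, 13 members were lower and 2 were higher in control males, 15 of 35, against 19.2% of all genes. Aqp4, Gja1 and Fabp7 were lower in every control male than in any control female, 3 of 35 members, where 3.89% of all genes separated these groups in one direction or the other.

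S100b had 54.3 to 97.2 CPM in control males, against 94.9 to 134 CPM in control females. Control female 5 was the only one that fell within the male range. The log2 fold change was -0.55 ± 0.12 (SE), with an unadjusted p of 0.000266 and an adjusted p of 0.0502 in edgeR. It was -0.44 without control male 5, -0.33 without the libraries above 100 CPM of Ttr and -0.42 without those above 1 CPM of Pmch. Pla2g7, which encodes platelet-activating factor acetylhydrolase, had 116, 85.6, 84.3, 88.0 and 56.3 CPM in control males, against 159.6, 155, 152, 119.8 and 99.5 CPM in control females. Control male 1 lay inside the female range and the rest of the males below it. Its log2 fold change was -0.67 ± 0.17 (SE), with an unadjusted p of 0.000923 and an adjusted p of 0.0701 in edgeR, and it was -0.36 without the libraries above 1 CPM of Pmch. Aqp4 had 103 to 148 CPM in control males, against 159 to 198 CPM in control females. The groups did not overlap. Its log2 fold change was -0.44 ± 0.12 (SE), with an unadjusted p of 0.00219 and an adjusted p of 0.101 in edgeR.

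Gja1 had 237, 242, 243, 245 and 184 CPM in control males, against 294, 282, 276, 282 and 261 CPM in control females. The first 4 males were close together just below the females, and control male 5 was well below. Fabp7, a fatty acid binding protein of radial glia and astrocytes, had 24.2, 15.5, 21.8, 16.6 and 7.35 CPM in control males, against 39.7, 24.7, 25.3, 26.4 and 29.2 CPM in control females. Again control male 5 was the lowest, and the highest male was just below the lowest female. The log2 fold changes were -0.27 ± 0.09 for Gja1 and -0.76 ± 0.25 for Fabp7 (SE), and -0.20 and -0.57 without control male 5. Of the 5 members with estimates above 0 in control males, Prodh and Vim were the 2 with an unadjusted p under 0.05, at 0.22 ± 0.08 and 0.34 ± 0.14 (SE). All 7 genes of the water channel, junctions and ion transport were below 0, from -0.44 to -0.14. Without control male 5, 9 members had an unadjusted p under 0.05 and the median was -0.151, and without control female 2 the number was also 9. Without the libraries above 1 CPM of Pmch, 4 members had an unadjusted p under 0.05 and the median was -0.084. The oligodendrocyte list had estimates of the same sign in this comparison, with all 15 genes lower in control males and a median of -0.61. Of these, 1 was called in edgeR, with an adjusted p of 0.0464. All 10 thalamic neuron genes were lower in control males as well, with a median of -1.22. The 11 striatal neuron genes had the opposite sign, all higher in control males with estimates of 0.66 to 1.15. No gene of the thalamic and striatal lists was called in edgeR. Endothelial genes had higher estimates in control males, 12 of 12 with a median of 0.56 and 3 called in edgeR. The further astrocyte lists did not show the members' balance: of 45 other astrocyte genes 27 had lower estimates in control males, with a median of -0.04, and of 34 reactive astrocyte genes 24 had higher ones, with a median of 0.30. At an unadjusted p under 0.05, 9 other astrocyte genes were lower and 3 higher in control males. At that level 2 reactive astrocyte genes were lower and 11 higher, where 19.2% of all genes stood. No gene of these 2 lists was called in edgeR. What part the other cell types had in the astrocyte values was not tested.

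Susceptible males were set against susceptible females in the same way. They had lower estimates for 20 of 35 members, with a median of -0.05, against -0.02 over all genes. None was called in edgeR, where 7 genes were (0.047%), nor by DESeq2 or limma voom, and the smallest adjusted p of a member in edgeR was 0.732. An unadjusted p under 0.05 was seen in 2 members, against 6.28% of all genes, and none separated the groups, as 0.779% of all genes did. They were Clu, with 685 ± 55.6 CPM in susceptible males and 805 ± 111 CPM in susceptible females, and Fgfr3, with 138 ± 13.7 CPM in susceptible males and 120.2 ± 12.2 CPM in susceptible females (SD, n = 5 each). Their log2 fold changes were -0.23 ± 0.08 and 0.20 ± 0.09 (SE). The number at an unadjusted p under 0.05 was 1 without susceptible female 1 or susceptible male 4, 4 without susceptible female 5 and 5 without control male 5, and the median turned to 0.011 without susceptible female 1.

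The largest differences in the list were between libraries of the same group. Agt, which encodes angiotensinogen, the precursor of angiotensin made in the brain mainly by astrocytes, had a within-group SD of 1.37 on the log2 scale, above that of 99.8% of all genes tested. It ran from 4.54 CPM in susceptible female 5 to 189 CPM in control female 1, a range of 41.6-fold. Slc6a11, which encodes the GABA transporter GAT-3, came second with an SD of 0.56 and a range of 194 to 865 CPM. The median SD of the members was 0.213, against 0.193 over all genes, and the steadiest were Hepacam, an adhesion protein of astrocyte junctions, at 0.11 and Prodh at 0.12. Agt, Slc6a11 and the pairs below were chosen after their values were seen.

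Agt had 66.0, 25.4, 92.3, 181 and 4.54 CPM in susceptible females, against 189, 177, 146, 100.1 and 18.0 CPM in control females. It had 67.0, 78.2, 73.6, 81.9 and 135 CPM in susceptible males, against 113, 36.7, 66.6, 16.7 and 119 CPM in control males. High and low libraries occurred in both control groups and in susceptible females, and susceptible males were the most even. Slc6a11 had 483, 369, 598, 865 and 194 CPM in susceptible females, against 849, 749.7, 686, 628 and 329 CPM in control females. It had 629, 453, 622, 597 and 707 CPM in susceptible males, against 619, 449, 536, 300.1 and 269 CPM in control males. The same libraries, susceptible female 5, control female 5 and control male 4, were low in both genes, and susceptible female 4 and control female 1 were high in both. Control male 5 broke the pattern, with the second lowest Slc6a11 of all and the highest Agt of its group.

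Many members went up and down together across libraries. With each library's log2(CPM + 0.5) taken as its deviation from its group mean, 64 of the 595 pairs of members had a Pearson r of at least 0.7 and 12 had one of -0.7 or less, with a median of 0.26. All points share the libraries and their scaling, and 1050 relations were computed in this family, pairs and lists together. Slc6a11 and Sparcl1 were the closest pair, with r = 0.97 and Spearman's rho = 0.95 over 20 libraries (permutation within groups, 2-sided p = 1e-05 for r, the smallest that the permutations can give, and 2e-05 for rho; adjusted 0.00175 and 0.0021). Without the 2 libraries farthest from the median, susceptible female 5 and control female 5, r was 0.96, and within each single group it was at least 0.96. Ndrg2 followed both of them, with r = 0.95 to each, and Atp1b2, a subunit of the sodium-potassium pump, followed Sparcl1 with r = 0.92 and Slc39a12, a zinc transporter, with r = 0.91. Slc6a11 had r of at least 0.7 with 8 members and of -0.7 or less with 2, Slc1a2 and Glul.

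Slc1a2 stood against this set. Its r with Agt was -0.90 and rho was -0.90 (permutation within groups, 2-sided p = 3e-05 for r and 2e-05 for rho; adjusted 0.00185 and 0.0021). Without susceptible females 4 and 5 r was -0.83, and within the groups it was -0.93 in susceptible females, -0.92 in susceptible males, -0.97 in control females and -0.80 in control males. Susceptible female 4 had the least Slc1a2 of all libraries, 1683 CPM, and 181 CPM of Agt, while susceptible female 5 had the most Slc1a2, 4019 CPM, and the least Agt. With Slc6a11, Slc1a2 had r = -0.74, and with Gjb6 (connexin 30) r = -0.80. Slc1a2 had no partner among the members at r of 0.7 or more. Agt and Slc6a11 were tied less tightly, with r = 0.83 overall and 0.65 without the 2 outermost libraries, and within the groups 0.99 in susceptible females, 0.46 in susceptible males, 0.99 in control females and 0.29 in control males.

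**Figure D4:**
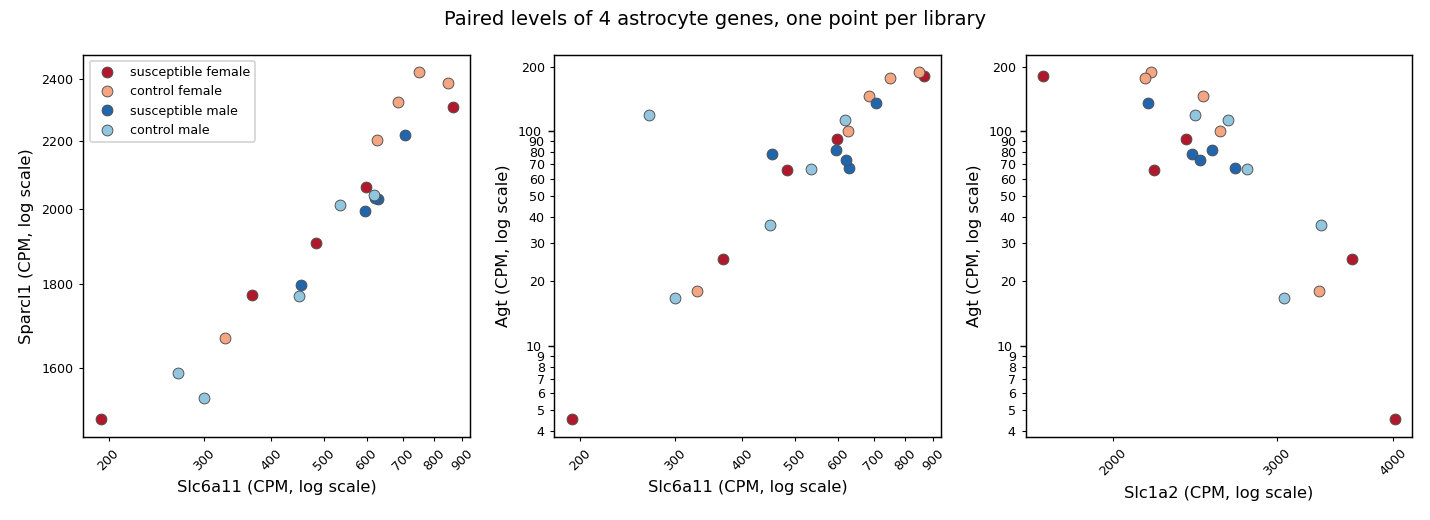
CPM of Sparcl1 against Slc6a11 (left), Agt against Slc6a11 (middle) and Agt against Slc1a2 (right), 1 point per library in the colour of its group, on log axes. Sparcl1 climbs with Slc6a11 in every group, Agt is lower where Slc1a2 is higher, and control male 5 lies off the middle trend at 269 CPM of Slc6a11 and 119 CPM of Agt.

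Over all libraries these genes also went with markers of neighbouring regions, and some with lists of other cells. Slc6a11 had r = 0.82 with the other astrocyte list, 0.79 with the ependymal, 0.73 with the oligodendrocyte and -0.73 with the neuron list. The adjusted p for r was 0.0072, 0.0042, 0.0042 and 0.00614 (permutation within groups). Within the groups the oligodendrocyte value was 0.68 to 0.90 and the other astrocyte value 0.79 to 0.98. The ependymal value was 0.25 to 0.91 and the neuron value -0.94 to 0.29. In susceptible males the ependymal value was 0.25, and the neuron value was 0.29, opposite in sign to the other groups. The reactive astrocyte, microglia, endothelial, choroid plexus and meningeal lists had r of -0.17 to 0.19 with Slc6a11. Within single groups each of these lists had values of both signs. They ran from -0.81 for microglia in susceptible females to 0.91 for reactive astrocytes in control females. Across the rodent brain, Agt and Slc6a11 are known to be high in the diencephalon and brain stem, and Slc1a2 is known to be high in the forebrain. The list called lateral hypothalamus holds Pmch, Hcrt, Oxt, Avp, Cartpt, Lhx9, Sim1 and Otp. In susceptible females it summed to a mean of 113 CPM, of which Pmch and Hcrt had 1.88 and 0.999 CPM. Most of that sum thus came from its other genes. The summed level of these 8 genes had r = 0.82 with Slc6a11, 0.74 with Agt and -0.73 with Slc1a2 over 20 libraries (rho = 0.81, 0.69 and -0.66; permutation within groups, adjusted p for r = 0.00255, 0.0103 and 0.00878, for rho = 0.00389, 0.0173 and 0.0316). Within the groups these did not hold throughout, with 0.06 for Slc6a11 in susceptible males, and 0.25 for Agt and -0.05 for Slc1a2 in control males. The 10 thalamic neuron genes had r = 0.72 with Slc6a11, 0.70 with Agt and -0.63 with Slc1a2 (rho = 0.79, 0.74 and -0.64; adjusted p for r = 0.00669, 0.00813 and 0.0333, for rho = 0.00389, 0.00767 and 0.0436). In control males alone the values were 0.55, 0.29 and -0.17. The 11 striatal neuron genes had r = -0.65 with Slc6a11, -0.71 with Agt and 0.71 with Slc1a2 (rho = -0.68, -0.77 and 0.69; adjusted p for r = 0.0374, 0.0256 and 0.0093, for rho = 0.0215, 0.00512 and 0.024). Within groups the value with Slc6a11 was -0.02 in control males, while that with Agt was -0.60 or lower in each group. The 8 cortex and hippocampus genes had r = -0.80 with Slc6a11 (rho = -0.63; adjusted p = 0.00493 for r and 0.0547 for rho) and -0.88 to -0.52 within the groups, but their r of -0.57 with Agt and 0.53 with Slc1a2 did not pass (adjusted p = 0.1 and 0.137). Without the 2 outermost libraries of each gene, the r with Slc6a11 was 0.74, 0.57, -0.54 and -0.65 for the lateral hypothalamus, thalamic, striatal and cortical lists. The striatal list held 1220.5 to 5405 CPM in susceptible females, 1243 to 3881 CPM in susceptible males, 360.3 to 2759 CPM in control females and 2427 to 4533 CPM in control males. The thalamic list held 324 to 2013 CPM, 376 to 1923 CPM, 425 to 1922 CPM and 387 to 926 CPM in the same order of groups, and all genes of both lists were read in every library. The lateral hypothalamus list held 14.9 to 371 CPM in susceptible females and 49.9 to 452 CPM in control females, with Hcrt at 0 in control male 5. Agt and Slc1a2 also went with lists of other cells. The neuron list had r = -0.76 with Agt and 0.67 with Slc1a2. The reactive astrocyte list had 0.52 and -0.55 in the same order. The adjusted p for r was 0.00445, 0.0061, 0.0461 and 0.0072 (permutation within groups). Agt had r = 0.74 with the other astrocyte list and Slc1a2 r = 0.57 with the microglia list. These passed for r (adjusted p = 0.0307 and 0.0383) but not for rho (0.175 and 0.0782). Whether the placement of the dissection or the mix of cells had a part in the spread of Agt, Slc6a11 and Slc1a2 was not tested.

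**Figure D5:**
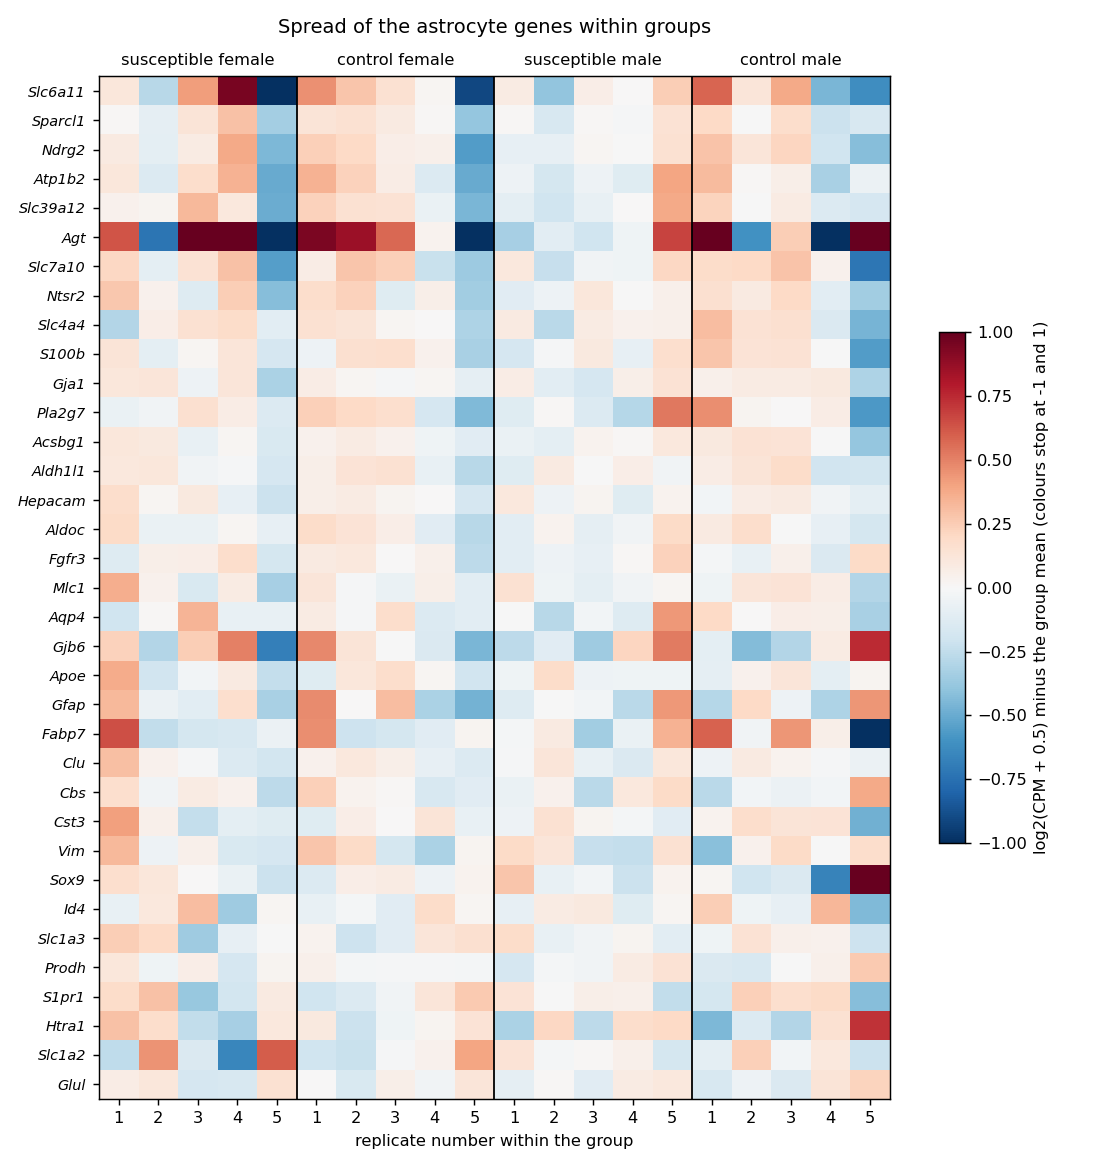
Deviation of each astrocyte gene from its group mean in each library, in log2(CPM + 0.5), with genes ordered by their correlation with Slc6a11 (0.97 for Sparcl1 near the top, -0.75 for Glul at the bottom) and libraries by group and replicate number. Susceptible female 5 and control female 5 are low in the upper genes and high in Slc1a2 near the bottom, and control male 5 is low in most genes but high in Sox9, Htra1, Gjb6 and Agt.

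Promoters are shown for Gfap, which had the smallest p of the members in females and over both sexes, and for Agt and Slc6a11, which had the widest spread within groups. They come from RefSeq on GRCm38.p6, run from 250 bases before to 50 after the annotated start, and the table covers 29 of the 35 members in 36 windows. Capitals mark a match to the STAT motif TTCNNNGAA, searched with the glucocorticoid receptor half-site AGAACA and the half-site TTGGCA of nuclear factor I, on both strands, with no overlap between the motifs in these windows.
Gfap (chr11:102897151-102897450, minus strand): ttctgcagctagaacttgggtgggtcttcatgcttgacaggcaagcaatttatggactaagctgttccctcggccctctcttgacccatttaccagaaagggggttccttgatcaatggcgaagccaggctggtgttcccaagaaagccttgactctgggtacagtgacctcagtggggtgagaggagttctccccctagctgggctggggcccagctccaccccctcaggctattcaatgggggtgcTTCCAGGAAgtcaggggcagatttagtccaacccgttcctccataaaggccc
Agt (chr8:124569657-124569956, minus strand): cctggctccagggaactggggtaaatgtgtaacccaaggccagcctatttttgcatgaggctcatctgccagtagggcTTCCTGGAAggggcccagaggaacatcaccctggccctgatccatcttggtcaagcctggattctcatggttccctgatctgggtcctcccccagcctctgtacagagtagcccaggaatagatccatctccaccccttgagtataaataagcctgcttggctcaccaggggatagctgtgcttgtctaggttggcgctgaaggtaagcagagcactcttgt
Slc6a11 (chr6:114130991-114131290, plus strand): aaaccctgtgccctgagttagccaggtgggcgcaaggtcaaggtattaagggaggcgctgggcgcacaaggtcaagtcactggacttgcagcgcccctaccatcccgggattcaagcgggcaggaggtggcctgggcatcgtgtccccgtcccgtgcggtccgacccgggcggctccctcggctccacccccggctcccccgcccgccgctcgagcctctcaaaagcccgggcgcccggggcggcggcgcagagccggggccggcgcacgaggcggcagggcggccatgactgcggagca
Gfap held 1 STAT match, which begins 2 bases before the start and runs across it, and Agt held 1 that begins 172 bases before its start. Slc6a11 held none of the 3 motifs. The window listed for Slc1a2 surrounds a start inside the gene and is not shown, and GENCODE lists a further Gfap start upstream of the one used here. Over the members, 8 of 36 windows held the STAT motif (22.2%), 4 the nuclear factor I half-site (11.1%) and 5 the glucocorticoid receptor half-site (13.9%). Among all 32851 windows of the same length the shares were 8.3%, 14.1% and 19.0%. A match describes letters in the window and not a bound site.

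A pair of further lists sets the members beside other astrocyte genes. Of 45 other astrocyte genes, which include the potassium channel gene Kcnj10, none was called in edgeR in any of the 6 contrasts. Their median log2 fold change was -0.05 in females and -0.05 in males, susceptible over control, and 26 of 45 were below 0 in each sex. Daam2, which acts in Wnt signalling, had the smallest p in females, with a log2 fold change of -0.27 ± 0.10 (SE, unadjusted p of 0.0158, adjusted p of 0.774 in edgeR). Kcnj10 was next, with 319 ± 84.1 CPM in susceptible and 422 ± 120 CPM in control females (SD, n = 5 each) and an unadjusted p of 0.0723 in edgeR. In males Notch1 led with -0.37 ± 0.15 (SE, unadjusted p of 0.0204, adjusted p of 0.462 in edgeR) and Fjx1 followed with -0.44 ± 0.18 (SE).

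A list of 38 genes of reactive astrocytes, which are induced by injury or inflammation, had 34 tested members and no call in edgeR. In females 16 were higher and 18 lower in susceptible mice, with a median of -0.00. In males 26 were lower and 8 higher, with a median of -0.23, and 6 had an unadjusted p under 0.05, all lower, where 9.67% of all genes stood at that level. Without control male 5 there were 35 tested genes, of which 22 were lower, with a median of -0.09, and 4 had an unadjusted p under 0.05, against 8.7% of all genes. Ggta1, which makes a surface sugar, had a log2 fold change of -0.47 ± 0.14 (SE, unadjusted p of 0.00332, adjusted p of 0.405 in edgeR), and Serping1, the C1 inhibitor, -0.66 ± 0.22 (SE, unadjusted p of 0.00759, adjusted p of 0.413 in edgeR). In females the heat shock gene Hspb1 had 0.57 ± 0.22 (SE) and the hyaluronan receptor Cd44 -0.46 ± 0.24 (SE). The summed list held 289 to 359 CPM in susceptible females, 293 to 412 CPM in susceptible males, 273 to 375 CPM in control females and 338 to 542 CPM in control males, and the highest value was that of control male 5. Endothelial genes were lower with it in susceptible males, with 10 of 12 below 0 and a median of -0.26, as were 8 of 10 meningeal fibroblast genes, with a median of -0.47. Their part in the reactive list was not tested.

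As a whole, the 35 members summed to 15348 ± 603 CPM in susceptible females, 14760 ± 453 CPM in susceptible males, 16281 ± 797 CPM in control females and 14671 ± 887 CPM in control males (SD, n = 5 each). The sum ranged over libraries between 13329 CPM in control male 5 and 16909 CPM in control female 1. It is weighted towards the most abundant members, such as Slc1a2, which alone ran from 1683 to 4019 CPM. Slc1a2 had r = -0.74 with both Sparcl1 and Slc6a11 within groups, so opposite moves of members can cancel in the sum. The oligodendrocyte list, the other large glial list, summed to 7317 ± 812 CPM in susceptible females and 9053 ± 1784 CPM in control females, and to 7388 ± 882 CPM in susceptible males and 5781 ± 1407 CPM in control males. The 12 neuron genes summed to 7192 to 7949.5 CPM, 7337 to 7951 CPM, 6685 to 8051 CPM and 7057 to 7888 CPM in susceptible females, susceptible males, control females and control males.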

How the data were processed

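Per the labels' protocols, polyadenylated RNA from Trizol extracts was read in pairs on an Illumina sequencer. The authors deposited whole-number read counts per gene for each library, which are not normalized. HISAT2, featureCounts and the mm10 assembly are named in the submitters' processing notes. No version, annotation or strand setting was given in the sources used here; reads shared by overlapping or antisense genes therefore cannot be separated. Symbols, positions and exon lengths came from GENCODE M21 on GRCm38, matched by identifier for 19206 of 19214 genes. Promoters came from RefSeq.

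Counts were TMM-scaled, filtered with filterByExpr (14884 genes left) and modelled in edgeR 4.0.16 (R 4.3.3), with a mean for each group of the 20 libraries and robust quasi-likelihood tests. P-values were adjusted over all genes tested (Benjamini-Hochberg, threshold 0.05), and SE is the size of the log2 fold change divided by the root of its F statistic. The scripts were tested on simulated data. Alternatives used DESeq2 1.42.0, limma 3.58.1 and mgcv 1.9.3, other filters and left-out libraries. Correlations used 100000 permutations of libraries within groups. No 2 libraries of a group agreed within sampling noise.

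The 35 members and all lists were chosen with earlier results of these data known. Named genes were Gfap, Aqp4, Aldh1l1, Slc1a2, Slc1a3 and Gja1, and any called member. The 3 members with the smallest p in each stress contrast, in their difference and between control sexes were named too. From the other astrocyte and reactive astrocyte lists came the 2 genes with the smallest p in each stress contrast within a sex. Called genes of the other cell type lists were counted but not named. Other genes, and the pairs, were named after their values were seen.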

Additional observations from a re-analysis of the deposited data

Results flagged for a closer look

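Over 140 combinations of a member and a group, 9 held a library that stood farther from its group than Dixon's 95% value allows, where chance gives about 1 in 20. Control male 5 held 3 of them, Gja1 at 184 CPM (others 237 to 245 CPM), Sox9 at 82.6 CPM (others 25.7 to 41.8 CPM) and Cst3 at 499.9 CPM (others 714 to 786 CPM). Susceptible male 5 held 2, Atp1b2 at 819 CPM (others 554 to 604 CPM) and Agt at 135 CPM (others 67.0 to 81.9 CPM). Susceptible male 2 held 2, Slc4a4 at 316 CPM (others 393 to 404 CPM) and Apoe at 1319 CPM (others 1124 to 1129 CPM). Susceptible female 1 held Fabp7 at 42.4 CPM (others 22.6 to 25.8 CPM), and control female 1 held Prodh at 33.3 CPM (others 31.7 to 32.0 CPM).

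A difference between the sexes in the stress contrast was marked for 3 members. The difference of log2 fold changes, females minus males, was -0.50 for S100b, -0.65 for Slc7a10 and 0.52 for Vim. Their unadjusted p in edgeR was 0.0106, 0.02 and 0.0145, and the adjusted p was 0.587 for each, so none passed over all genes.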

How the results depend on the processing

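No member was called in either stress contrast, their mean, their difference or between susceptible sexes under any alternative run. Between control sexes, S100b alone was called with DESeq2 size factors, with a minimum of 1 CPM in 5 libraries and with the replicate block (1 member each); DESeq2 called 3, limma voom with quality weights 10, and voom with the GC and length trend removed 15 members. Leaving out single libraries gave 0 to 3 members there (most without control female 5). All genes called between control sexes numbered 455 (DESeq2), 3324 (voom), 3001 (voom with the trend removed), 38 (no filter on low counts), 19 (only these groups in the fit) and 5 without the libraries rich in Ttr or in Pmch, and 6 to 458 with single libraries left out. Between susceptible sexes they numbered 15 (DESeq2), 11 (voom), 13 (without the Pmch libraries) and 4 (replicate block, only these groups, or without the Ttr libraries), and 6 to 20 with single libraries left out. For stress they numbered 24 (DESeq2) and 689 (voom) in males, 29 (DESeq2) for the mean, and 0 to 2 in females with single libraries left out. Without the Pmch libraries the members' median was -0.038 for the difference of the stress contrasts and -0.084 between control sexes, each nearer 0. Estimates that changed sign were small: in females Slc1a3 -0.01 without the Ttr and -0.05 without the Pmch libraries, and Aldh1l1 0.03 without the Pmch libraries; in males Aqp4 -0.08 (voom), -0.19 (voom with the trend removed), -0.13 and -0.10 (without the Ttr and the Pmch libraries), Aldh1l1 -0.05 (voom) and -0.04 (without the Ttr libraries), and Gja1 -0.06 (voom with the trend removed). With single libraries left out, log2 fold changes ran from -0.05 to 0.26 for Slc1a2 and -0.09 to 0.01 for Gja1 in females, and -0.09 to 0.00 for Slc1a3, -0.03 to 0.06 for Aldh1l1 and -0.12 to 0.07 for Aqp4 in males. The causes were not tested. Same-numbered libraries did not pair (r of deviations from -0.436 to 0.642, with 1 of 5 numbers matching best in each pair of groups). Fits limited to the groups compared were not run for the mean and the difference, which need all groups. The Ttr and Pmch settings leave as few as 3 and 2 libraries in a group, which limits the precision there.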
